A study of Mus musculus with 40 samples.

Results

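Immunoglobulin heavy and light chain genes were examined in the RNA of 40 CT26 tumors. Members were the table's gene symbols for the heavy chain variable segments and constant regions (Ighv, Ighg, Ighm, Ighd, Igha, Ighe), the kappa variable segments and constant region (Igkv, Igkc) and the lambda variable segments and constant regions (Iglv, Iglc). This name rule took 361 of the 54087 genes in the table and used no measured value. The members were 183 Ighv segments, 162 Igkv segments, 3 Iglv segments, 8 heavy constant and 5 light constant genes. CT26 is a colon carcinoma line of the BALB/c strain, and all tumors came from this 1 line grown under the skin of BALB/c mice. The 8 groups of 5 mice received a mouse IgG2a isotype control ("mIgG2a - Isotype control"), anti-PD1 FcS, anti-TGFb, anti-GARP:TGFb WT, anti-GARP:TGFb FcD, or anti-PD1 FcS together with anti-TGFb, anti-GARP:TGFb WT or anti-GARP:TGFb FcD. The antibodies were given on days 6, 9 and 12 after the tumor cells, and tumors were taken on day 13. FcS and FcD name Fc-silent and Fc-dead antibody forms that do not engage Fc gamma receptors, whereas WT is the unmodified mouse IgG2a. All injected agents were antibody proteins, which carry no RNA, and the isotype control mice received one too.

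B cells build each antibody from a heavy and a light chain. During B cell development, recombination joins 1 of many variable (V) segments to shorter joining segments, RNA splicing then adds the constant region, and a naive B cell makes IgM and IgD, encoded by Ighm and Ighd, with a kappa (Igkc) or lambda (Iglc) light chain. After activation, class switching replaces the heavy constant region with an IgG, IgE or IgA region (Ighg, Ighe, Igha), and plasma cells then transcribe the rearranged genes at very high levels. Constant region genes also give germline transcripts without a variable region, which counts per gene do not separate from those of antibodies.

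The libraries held between 11931730 and 20680548 reads on genes (median 14030511). The labels number them from 41 to 80, each group had 2 or 3 mice in libraries 41 to 60 and the rest in 61 to 80, and 248 of 14760 tested genes (1.68%) differed between these parts at an adjusted p under 0.05. The tumor of library 68 (anti-TGFb + anti-PD1 FcS) stood apart in immunoglobulin RNA, and results that rest on it are given with and without it. Adipocyte, skin, muscle and lymph node genes also varied among tumors. The reference carries Ighg2c where BALB/c mice carry Ighg2a, and the V segments of BALB/c differ from those of the reference strain. Mice of a group were separate animals.

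Immunoglobulin genes held 63936 reads in all, from 0.00282% to 0.122% of a tumor's reads. At least 1 read was seen for 210 members, and 151 had none. Heavy constant genes took 71.2% of the member reads and light constant genes 17.3%, against 7.72% for Igkv, 2.91% for Ighv and 0.892% for Iglv. Ighm alone had 32936 reads and Igkc 10043, followed by Ighg1 with 8290. Of the 128 V segments annotated as pseudogenes, 12 Ighv and 5 Igkv had reads, 151 and 9 reads in all. In RNA of whole tumors, fewer cells of the B lineage and less immunoglobulin RNA per cell cannot be told apart.

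Per length, Ighm was the leading immunoglobulin gene of these tumors. Levels between genes were compared as CPM (counts scaled to equal library size, with library sizes scaled by TMM) per kilobase of exon. Ighm (chr12:113418558-113422730, minus strand), the constant region of IgM, had a median level of 25.8 CPM per kilobase over the 40 tumors (9.30 to 116). Igkc (chr6:70726435-70726966, plus strand, both in GRCm38), the kappa constant region, had 11.6 (1.92 to 589). Ighm exceeded Igkc in 33 tumors and lay under it in 7, and the ratio of these levels ran from 0.139 to 11.1. Igkc in turn exceeded Iglc3, the next gene in the order, in 40 of 40 tumors.

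The genes below these had low levels per kilobase that changed places from tumor to tumor. Medians were 0.685 CPM per kilobase for Iglc3, 0.635 for Igha (IgA), 0.534 for Iglv1, 0.502 for Ighd (IgD), 0.404 for Iglc2 and 0.392 for Iglc1. Ighg1 (IgG1) had a median of 0.207 but ranged from 0 to 179, a far wider range than Ighg2b (median 0.150, highest 2.71), Ighg3 (0.119, highest 0.997) and Ighg2c (0.104, highest 3.17). Iglc3 exceeded Igha in 20 tumors and was lower in 20, and Ighg2b exceeded Ighg3 in 20 and was lower in 19, so that such neighbours did not differ beyond their spread. Ighe (IgE) had reads in 12 tumors, Iglv2 in 18, Iglv3 in 14, and Iglc4 in none of the 40.

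The member reads were concentrated in a few tumors. Library 68 held 18219 of them (28.5%), and the 5 highest tumors, libraries 68, 48, 77, 42 and 71, held 49.0%. The concentration depended on the gene. Library 68 had 6912 of the 8290 Ighg1 reads (83.4%), 264 of the 342 Ighe reads (77.2%) and 4657 of the 10043 Igkc reads (46.4%), but 6.98% of the Ighm reads and 4.97% of the Igha reads. Ighm was instead highest in library 77 (anti-GARP:TGFb WT + anti-PD1 FcS) and Igha in library 71 (anti-GARP:TGFb FcD + anti-PD1 FcS).

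Markers of lymphoid tissue were also high in library 68, and less so in libraries 42, 47, 48 and 70. Library 68 held 240 of all 487 reads of Ccl21a, a chemokine of lymph node stroma, and 381 of all 624 reads of Glycam1, a ligand of L-selectin made by lymph node vessels. Jchain, which joins IgM and IgA into polymers, had 1251 of its 2589 reads there, and Cd79a, a subunit of the B cell receptor, 401 of 1280. The level of the 7 lymph node genes examined (summed lymph node list) was 70.5 CPM in library 68, against 23.6 CPM in library 42, 20.8 in library 48, 20.2 in library 47, 20.1 in library 70 and at most 8.55 CPM in the other 35 tumors. Glycam1 had 38, 50 and 139 reads in libraries 42, 47 and 70, and Ccl21a had 57, 55 and 23. Library 48 had 1 read of Glycam1 and 28 of Ccl21a. Its list reads lay mostly on Cxcl13 (146), Fcer2a (61) and Cxcr5 (20). Ccl19 was at 0 in 30 tumors, Glycam1 in 28, Madcam1 in 22 and Ccl21a in 19. The part of lymphoid tissue in the immunoglobulin levels was not tested.

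Ighm values of the treated groups mostly overlapped those of the isotype control mice. In isotype control tumors, Ighm stood at 32.8, 41.3, 45.1, 40.2 and 39.2 CPM (libraries 46, 51, 63, 74 and 78). With anti-PD1 FcS alone it was 33.9, 60.7, 23.2, 32.0 and 37.1 CPM (libraries 47, 52, 54, 67 and 76). With anti-TGFb alone it was 32.1, 174, 17.5, 45.1 and 67.3 CPM (libraries 43, 48, 59, 72 and 79). The isotype control values were the closest together, and both monotherapy groups held tumors above and below them. Anti-GARP:TGFb WT gave 80.6, 61.2, 36.1, 55.5 and 30.2 CPM (libraries 42, 49, 56, 65 and 73). Anti-GARP:TGFb FcD gave 47.9, 22.9, 52.7, 50.3 and 27.9 CPM (libraries 41, 58, 61, 70 and 75). Medians were 55.5 and 47.9 CPM in these groups and 40.2 CPM in the isotype controls, with overlap in each case.

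The combinations had Ighm medians between 55.9 and 62.3 CPM. Values for anti-GARP:TGFb WT + anti-PD1 FcS were 61.8, 29.1, 56.5, 34.6 and 219 CPM (libraries 45, 55, 64, 69 and 77). For anti-GARP:TGFb FcD + anti-PD1 FcS they were 62.3, 49.3, 68.7, 73.1 and 57.8 CPM (libraries 44, 50, 60, 71 and 80). For anti-TGFb + anti-PD1 FcS they were 41.1, 55.9, 53.2, 69.0 and 155 CPM (libraries 53, 57, 62, 66 and 68). All 5 tumors of the FcD combination lay above all 5 isotype controls, with a log2 fold change of 0.65 ± 0.47 (SE) by edgeR (adjusted p = 0.464). In the WT combination, where library 77 was far above the rest, Ighm had a log2 fold change of 1.01 ± 0.47 (SE) against the isotype control (edgeR, adjusted p = 0.216), and of 0.19 without library 77.

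**Figure D1:**
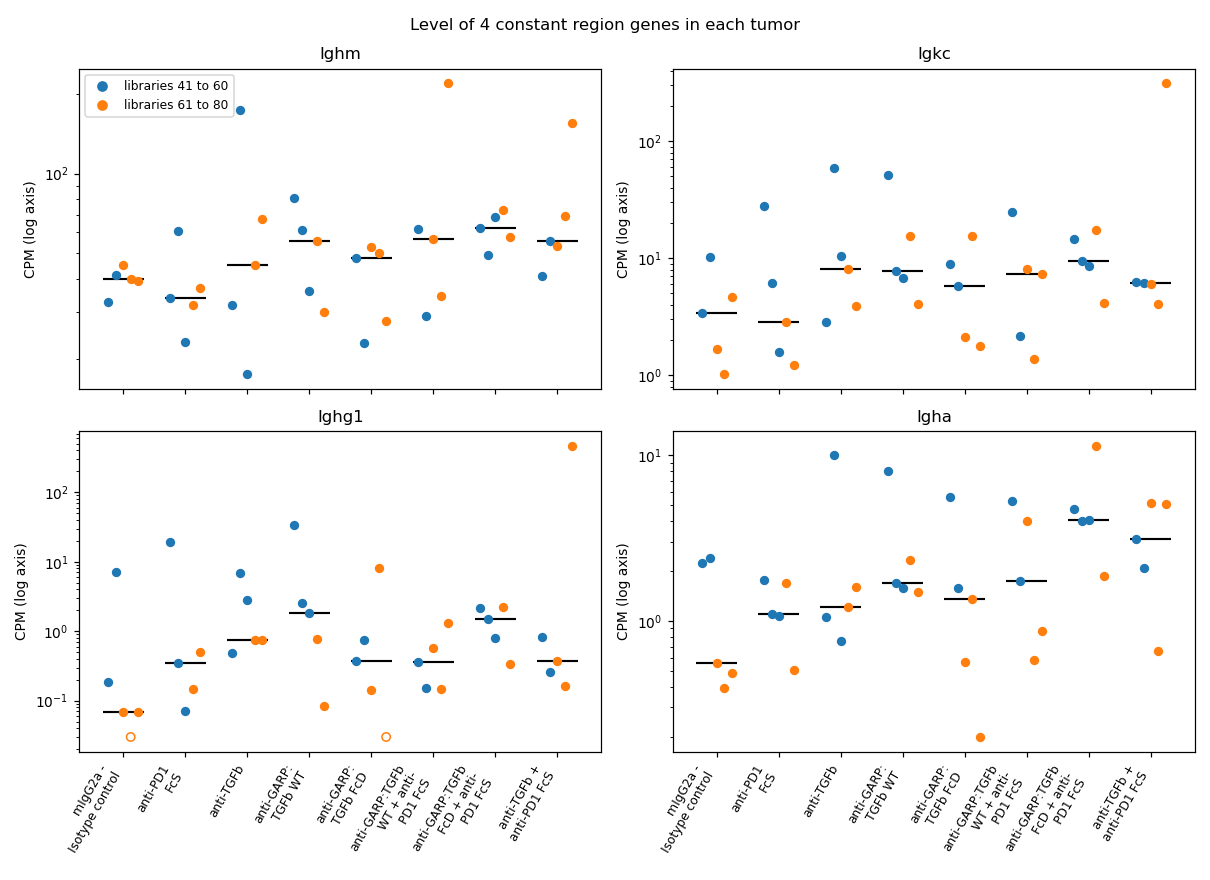
Levels of Ighm, Igkc, Ighg1 and Igha (CPM, log axis) in each of 40 tumors, by treatment group; 1 point is 1 tumor, colored by library part, bars are group medians, and open circles at the lower edge mark tumors with 0 reads. Library 68 (465 CPM of Ighg1, 313 CPM of Igkc) lies far above the rest of its group in Ighg1 and Igkc, and every group overlaps the isotype control in Igkc and Ighg1.

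In each of the 8 groups, Igkc spanned a wider fold range than Ighm, and its highest tumors were spread over several treatments. The isotype control tumors had 3.40, 10.3, 1.66, 1.02 and 4.64 CPM, in the library order above. The anti-PD1 FcS tumors had 27.8, 6.13, 1.57, 2.87 and 1.23 CPM, the highest in library 47. The anti-TGFb tumors had 2.85, 59.3, 10.4, 8.07 and 3.92 CPM, the highest in library 48. Each of these groups held 1 tumor well above the rest. Anti-GARP:TGFb WT tumors had 51.9, 7.82, 6.80, 15.5 and 4.08 CPM, with library 42 the highest, and anti-GARP:TGFb FcD tumors had 8.90, 5.76, 2.12, 15.4 and 1.79 CPM. The WT combination gave 24.9, 2.15, 8.15, 1.39 and 7.28 CPM, and the FcD combination 14.7, 9.42, 8.57, 17.5 and 4.11 CPM. In anti-TGFb + anti-PD1 FcS tumors the values were 6.21, 6.16, 5.96, 4.03 and 313 CPM, so that 4 tumors were alike and library 68 was far above them. The 8 group medians lay between 2.87 and 9.42 CPM, and every group overlapped the isotype control.

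Ighg1 separated single tumors rather than groups. Among isotype controls, library 51 had 7.09 CPM and the other 4 between 0 and 0.185 CPM. Library 47 had 19.3 CPM among anti-PD1 FcS tumors that otherwise reached 0.504 CPM, and library 42 had 34.2 CPM where the other anti-GARP:TGFb WT tumors reached 2.54 CPM. Library 70 had 8.04 CPM where the other anti-GARP:TGFb FcD tumors reached 0.751 CPM. Libraries 42, 47 and 70 were also among the 5 tumors highest in lymph node genes given above, whereas library 51 stood at 1.79 CPM of that list, and the part of these genes in the Ighg1 values was not tested. A tumor high in Ighg1 was present in groups with and without anti-PD1 FcS, the isotype control included. In anti-TGFb + anti-PD1 FcS tumors, Ighg1 was 0.833, 0.259, 0.378, 0.165 and 465 CPM. The anti-TGFb tumors had 0.489, 6.78, 2.81, 0.740 and 0.734 CPM. Neither combination with anti-GARP:TGFb held a tumor above 2.22 CPM. Ighe, which had 264 reads in library 68, had 40 in library 47, 15 in library 70, 9 in library 42, 7 in library 49 and at most 1 in each of the other 35 tumors.

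In the comparisons with the isotype control, no member had an adjusted p under 0.05 (edgeR quasi-likelihood test, 8 groups in 1 model, Benjamini-Hochberg over 14760 genes). The filter on low counts left 14 members, the constant genes Ighm, Ighd, Ighg1, Ighg2b, Ighg2c, Ighg3, Igha, Igkc, Iglc1, Iglc2 and Iglc3 and the segments Iglv1, Igkv1-110 and Igkv1-117, and the other 347 were not tested. With anti-PD1 FcS, anti-TGFb, anti-GARP:TGFb WT and anti-GARP:TGFb FcD, 0 of all genes were called (0%), and 1, 4, 2 and 0 members had an unadjusted p under 0.05, beside 0.949%, 2.32%, 0.969% and 0.474% of all genes. The WT, FcD and anti-TGFb combinations with anti-PD1 FcS also gave 0 called genes (0%), with 1, 2 and 8 members at an unadjusted p under 0.05, beside 20.7%, 16.6% and 20.1% of all genes. DESeq2 called 0 members in these 7 comparisons, in which 2, 7, 8, 2, 2, 3 and 24 members had an unadjusted p under 0.05. It was run without this filter, so its counts here and below can include any of the 210 members with a read. They are not comparable with counts among the 14, and shares of all genes by DESeq2 are not reported here. DESeq2 gave no adjusted p to most members in the last of them, where 3 had one. The 7 comparisons share the isotype control mice. In them, 10, 14, 14, 13, 13, 13 and 14 of the 14 members had a log2 fold change above 0, with medians of 0.93, 2.22, 1.77, 0.69, 1.06, 1.58 and 2.74, while the medians over all genes lay between -0.00398 and 0.0217.

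Among monotherapy members at an unadjusted p under 0.05, 1 tumor held much of the difference in some and several tumors in others. With anti-TGFb, Ighg3 was 0.0815, 1.71, 2.51, 1.14 and 0.0612 CPM, against 0.370, 0.149, 0.139, 0 and 0.208 CPM in isotype controls. Its log2 fold change was 2.56 ± 0.95 (edgeR, adjusted p = 1.000), and 3 tumors lay above and 2 below most controls. Ighd, at 0.407, 12.2, 0.0759, 1.01 and 0.918 CPM with anti-TGFb, had a log2 fold change of 2.70 ± 1.30, and of 0.48 without library 48. Ighg2c had 2.64 ± 1.13 there, and 1.29 without library 48. With anti-GARP:TGFb WT, Ighg2b was 7.25, 0.471, 0.756, 0.386 and 0.167 CPM and its log2 fold change of 2.23 ± 0.91 stood at 0.27 without library 42. Ighd had 3.14 ± 1.30 there and 1.99 without that library. Iglc1 was the remaining such member with anti-PD1 FcS, with anti-TGFb and with the FcD combination, against 2 reads in all isotype controls.

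The largest fold changes were those of anti-TGFb + anti-PD1 FcS and were smaller or below 0 without library 68. Against the isotype control, the log2 fold change was 6.00 ± 1.76 for Ighg1 (adjusted p = 0.127), 3.999 ± 1.16 for Igkc (adjusted p = 0.127) and 5.02 ± 1.35 for Iglv1 (adjusted p = 0.108), all by edgeR. Iglc1 (adjusted p = 0.108) had 2 reads in the 5 isotype control tumors together, and 139 in library 68 against 1 to 7 in the other 4 tumors of its group. Without library 68, 11 of the 14 members had a log2 fold change above 0, the median was 0.471, and 0 had an unadjusted p under 0.05. Ighg1 was then at -1.83 and Igkv1-110 at -0.78, both below 0, as was Ighg2b (-0.63). Igkc was at 0.41, Iglv1 at 1.81 and Iglc1 at 2.61. Without isotype control library 51, the highest control in Ighg1, the Ighg1 estimate was 9.97. Leaving out another mouse of the group, library 53, acted in the opposite sense. Without it 7 of 17 tested members passed an adjusted p of 0.05, namely Ighg1, Igkc, Igkv1-110, Igkv10-96, Iglc1, Iglc2 and Iglv1, while 2006 of all 14951 genes tested did. Without isotype control library 63, Iglc1 and Iglv1 passed it, with 730 genes in all.

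**Figure D2:**
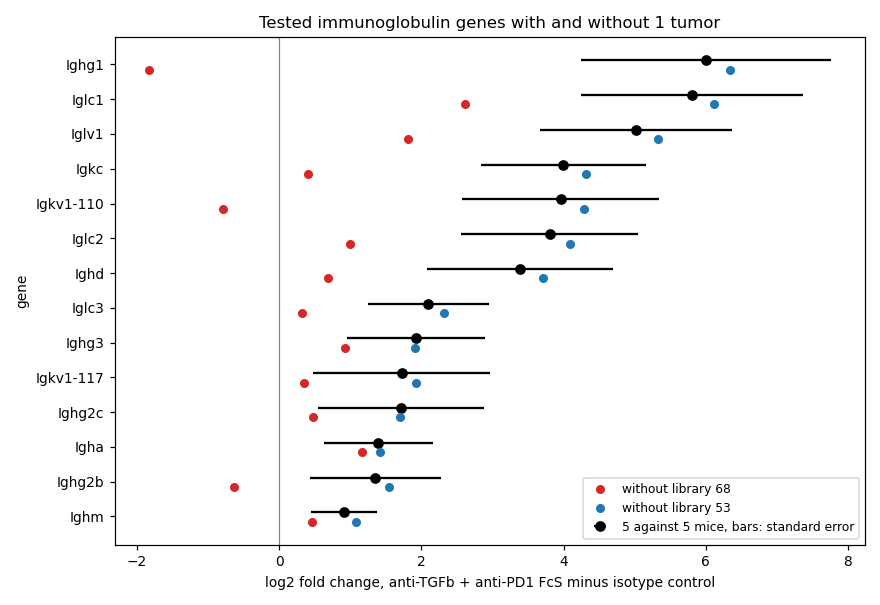
Log2 fold change of the 14 tested members, anti-TGFb + anti-PD1 FcS minus isotype control; black points and bars are the estimate from 5 against 5 mice with its standard error, and colored points leave out 1 tumor of the treated group. All 14 black points lie above 0, and without library 68 Ighg1 lies at -1.83 and Igkc at 0.41. Iglc1 rests on 2 reads in the isotype control group.

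The question of what a second antibody added to anti-PD1 FcS gave no called member either. Against anti-PD1 FcS, 0 members and 0 genes (0%) were called with the WT and with the FcD combination, and with anti-TGFb + anti-PD1 FcS 0 members and 1 of 14760 genes (0.00678%). At an unadjusted p under 0.05 there were 1, 1 and 7 members by edgeR, beside 17.2%, 10.7% and 17.1% of all genes, and 1, 1 and 11 by DESeq2, which called 0 members. These comparisons share the anti-PD1 FcS mice. For anti-TGFb + anti-PD1 FcS, Ighg1 had a log2 fold change of 4.52 ± 1.596 and Igkc of 3.09 ± 1.10 (edgeR, adjusted p = 0.191 for both). Without library 68 they were -3.29 and -0.50, Igkv1-110 was -2.20, Iglv1 was -0.77, 9 of the 14 members were below 0 and 5 above. Without library 47 (anti-PD1 FcS), Ighg1 was at 8.41 and Igkc at 4.51. Without library 53, Ighg1, Igkc and Igkv10-96 of 17 tested members passed an adjusted p of 0.05, while 1734 of all 14951 genes tested did.

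The effect of each second antibody was also set against its effect without anti-PD1 FcS. These 3 interactions called 0 members and 0 genes (0%). Members at an unadjusted p under 0.05 were 2 for anti-GARP:TGFb WT, Ighd and Ighg1, both with a negative term, and 0 for anti-GARP:TGFb FcD and anti-TGFb, by edgeR. Of all genes, 8.75%, 4.49% and 2.31% had such a p for anti-GARP:TGFb WT, anti-GARP:TGFb FcD and anti-TGFb. DESeq2 called 0 members, with 3, 2 and 0 at an unadjusted p under 0.05. The Ighg1 term for anti-GARP:TGFb WT was -5.40 ± 2.51 on the log2 scale (edgeR, adjusted p = 0.483). The high Ighg1 values of library 42 (anti-GARP:TGFb WT) and library 47 (anti-PD1 FcS) both enter it.

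A test of any difference among the 8 groups called 0 members and 4 of 14760 genes (0.0271%). Ighg1 was the closest member (edgeR, adjusted p = 0.0696), followed by Igkc, Iglv1 and Iglc1, and 4 of 14 members (28.6%) had an unadjusted p under 0.05 by edgeR, beside 24.6% of all genes, and 5 members by DESeq2. Single mice decided this call. Ighg1 passed an adjusted p of 0.05 without library 42, 47, 48, 50, 52, 53 or 66, with adjusted p values between 0.0121 and 0.0418 (edgeR). In these fits, 4, 40, 388, 1154, 183, 2288 and 6 of all genes were called, in that order, of 14887 to 14955 tested. Igkc, Igkv10-96 and Iglv1 passed it as well without library 53. By DESeq2 the called member was Igkv10-96 (adjusted p = 0.0425), and without a filter on low counts it was Igkv6-23 (edgeR, adjusted p = 0.0488).

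Igha, the constant region of IgA, was the member with the lowest p in the FcD combination and did not follow library 68. Its level in anti-GARP:TGFb FcD + anti-PD1 FcS tumors was 4.75, 3.99, 4.08, 11.4 and 1.86 CPM (libraries 44, 50, 60, 71 and 80). In the isotype controls it was 2.22, 2.39, 0.555, 0.392 and 0.484 CPM, and in anti-PD1 FcS tumors 1.77, 1.10, 1.07, 1.69 and 0.504 CPM. All 5 FcD combination tumors lay above all 5 anti-PD1 FcS tumors, while library 80 overlapped the isotype controls. The log2 fold change was 2.09 ± 0.77 against the isotype control (edgeR, adjusted p = 0.240) and 2.08 ± 0.77 against anti-PD1 FcS (adjusted p = 0.458). Without library 71 it was 1.58 and 1.57. With the library part in the model it was 2.26 and 2.22.

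Elsewhere, Igha was 1.06, 10.05, 0.759, 1.21 and 1.59 CPM with anti-TGFb, and 7.999, 1.70, 1.57, 2.32 and 1.5 CPM with anti-GARP:TGFb WT. It was 5.56, 1.59, 0.566, 1.35 and 0.199 CPM with anti-GARP:TGFb FcD, 5.32, 1.74, 3.98, 0.584 and 0.871 CPM with the WT combination, and 3.10, 2.08, 5.13, 0.658 and 5.04 CPM with the anti-TGFb combination. Each of these groups had tumors within the range of the isotype controls. Igha also differed between library parts without passing the adjusted test (log2 fold change -0.84 ± 0.37 in libraries 61 to 80 against 41 to 60, edgeR, adjusted p = 0.319). It was the sole member at an unadjusted p under 0.05 in that comparison by edgeR, beside 12.5% of all genes. There edgeR called 0 members, beside 1.68% of all genes. DESeq2 had 6 members at an unadjusted p under 0.05 and called 0.

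The 3 adipocyte genes also had higher levels in the FcD combination, and 2 of the 3 skin genes were high in its libraries 71 and 80. The 3 adipocyte genes examined, Adipoq, Plin1 and Cidec, were higher in the FcD combination than in the isotype control in 3 of 3 cases (edgeR, unadjusted p under 0.05). In that comparison 0 of 3 passed an adjusted p of 0.05, and 16.6% of all genes had an unadjusted p under 0.05 in either direction. In libraries 61 to 80, 3 of 3 were lower at an unadjusted p under 0.05, beside 12.5% of all genes in either direction. Their level (summed adipocytes list) was 9.88 to 181 CPM in the FcD combination, 0.692 to 23.1 CPM in the isotype controls and 0.620 to 106 CPM with anti-PD1 FcS. None of the 3 was at 0 in any tumor. Library 71, the highest in Igha, also had the most reads of Adipoq (1239), the fat cell hormone adiponectin, and Pearson's r of Igha with Adipoq was 0.713 over 40 tumors. Of the 3 skin genes, the keratins Krt5 and Krt14 had an unadjusted p under 0.05 and a higher level in the FcD combination than in the isotype control (edgeR, adjusted p = 0.258 and 0.285), and Krt10 did not. Krt5 had 0, 0, 0, 264 and 71 reads in the FcD combination (libraries 44, 50, 60, 71 and 80). It had 0, 0, 8, 8 and 3 in the isotype controls. Krt14 had 2, 0, 0, 117 and 35 reads against 0, 1, 7, 2 and 6. In libraries 61 to 80, 2 of the 3 skin genes were higher at an unadjusted p under 0.05, and 1 passed an adjusted p of 0.05 (edgeR). Between these parts 12.5% of all genes had an unadjusted p under 0.05 and 1.68% an adjusted p under 0.05, in either direction. Krt5 was at 0 in 18 tumors and Krt14 in 7. Krt5 had its highest count, 264 reads, in library 71, and the summed skin list was 2.52 to 28.6 CPM in the FcD combination and 3.58 to 5.18 CPM in the isotype controls. The part of adipocyte and skin genes in the Igha values was not tested.

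As shares of heavy constant region reads, Ighm dominated almost every tumor. The median share of Ighm was 89.5%, and Ighm had the most reads in 39 of 40 tumors. Igha followed with 3.58%, Ighd with 1.70%, Ighg1 with 0.937%, Ighg2b with 0.648%, Ighg3 with 0.458% and Ighg2c with 0.298%, while the median of Ighe was 0. Among the switched genes, Igha had the most reads in 29 tumors and Ighg1 in 9, with ties in 2. Each tumor had at least 331 heavy constant reads, and intervals below are 95% Wilson intervals that cover counting error only.

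Library 68 was the exception. There, Ighm made up 23.0% of 9972 reads (22.2 to 23.9%), Ighg1 69.3% (68.4 to 70.2%) and Ighe 2.65% (2.35 to 2.98%). In library 47 the Ighm share was 47.8% of 962 reads, Ighg1 27.2% (24.5 to 30.1%), Ighd 16.8% (14.6 to 19.3%) and Ighe 4.16% (3.07 to 5.61%). Library 42 had 55.5% Ighm and 23.6% Ighg1 (21.7 to 25.5%) of 1942 reads. Library 59 (anti-TGFb) differed in kind, with 9.97% Ighg3 (7.19 to 13.7%), an IgG class usual against polysaccharides, beside 11.2% Ighg1 of 331 reads. Library 77, with the most Ighm reads, had 97.2% Ighm and no Ighe read in 3625, which allows a share of up to 0.0828% (3 counts of the total). It had 0.772 Ighv reads per 100 heavy constant reads, against 8.47 in library 68, and 26 reads of Jchain, against 1251. The heavy constant reads thus fell mainly on Ighg1 in library 68 and almost all on Ighm in library 77. Of the 18219 reads of all members in library 68, Ighg1 had 6912 and Igkc 4657.

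**Figure D3:**
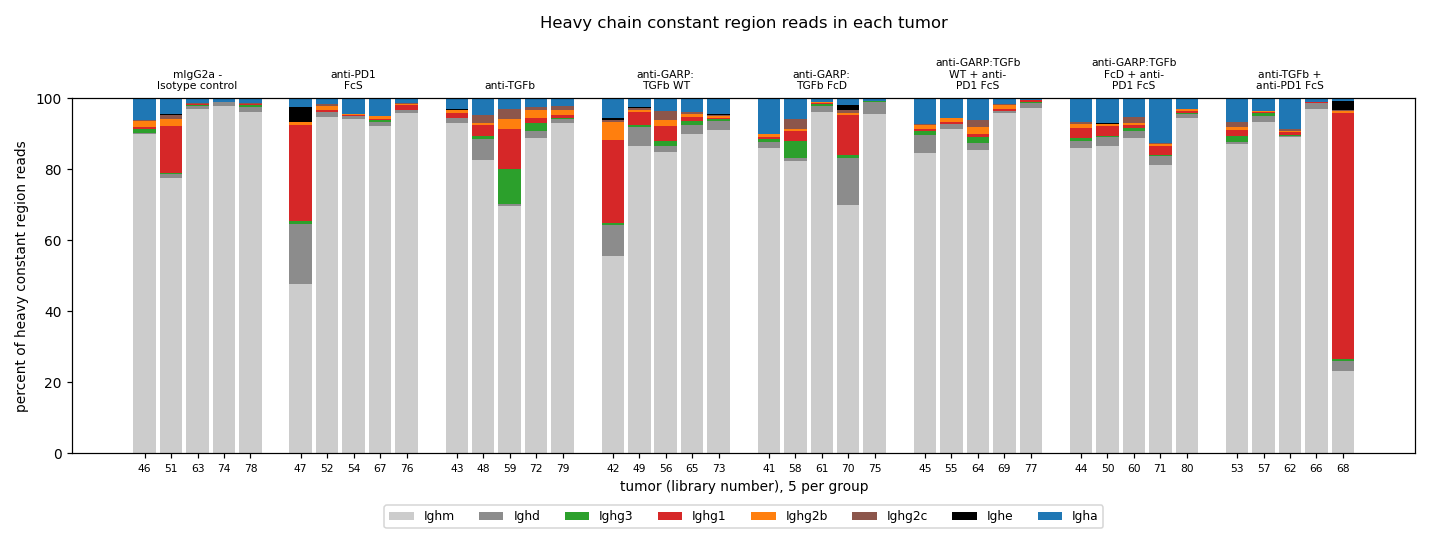
Percent of heavy constant region reads on each of 8 heavy constant genes, 1 stacked bar per tumor, named by library number and arranged by treatment group. Ighm takes most of the bar except in library 68, where Ighg1 takes 69.3%, and in library 47, where Ighm takes 47.8%.

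Shares did not separate the treatments. Mean Ighm shares ran from 77.9 ± 30.9% (SD, n = 5) with anti-TGFb + anti-PD1 FcS, library 68 included, to 91.7 ± 8.48% in isotype controls. Without library 68 that group stood at 91.6 ± 4.398% (n = 4), and the lowest mean was then 81.6 ± 14.8% with anti-GARP:TGFb WT. Exact permutation tests of 7 shares in 10 comparisons (70 tests, 2-sided, each of 5 against 5 mice with a smallest possible p of 0.00794) gave no adjusted p under 0.984. The 1 test with an unadjusted p under 0.05 was the Igha share, 6.90 ± 3.56% in the FcD combination against 2.95 ± 1.59% with anti-PD1 FcS (exact permutation p = 0.0317). The difference was 3.43 percentage points within libraries 41 to 60 and 4.75 within 61 to 80. Tests over the 8 groups gave adjusted p values from 0.838 to 0.996 (permutation of an F statistic, 100000 resamples).

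Kappa exceeded lambda in every tumor. The lambda genes Iglc1, Iglc2 and Iglc3 together took a median of 11.2% of light constant reads (0 to 27.3%), and group means lay between 10.04 ± 3.29% and 12.8 ± 7.96%. In 9 tumors the share rests on fewer than 50 light constant reads, and the tumor with no lambda read, library 74, had 13. In library 68, 337 of 4994 reads (6.75%) were lambda. The lambda constant genes on chromosome 16 resemble each other, which bears on how reads are assigned. A stretch of 120 aligned coding bases at the start of each is shown from the transcripts of GENCODE M21 (GRCm38, minus strand), because it holds differences that separate Iglc1 from the others, with the 30 positions that are not the same in all 3 genes in capitals. Iglc1 lies at chr16:19061618-19062071, Iglc2 at chr16:19198396-19200351 and Iglc3 at chr16:19065230-19065681.
Iglc1: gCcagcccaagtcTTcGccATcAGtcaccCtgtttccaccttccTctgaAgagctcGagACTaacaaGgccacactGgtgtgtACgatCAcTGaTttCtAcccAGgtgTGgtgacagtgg
Iglc2: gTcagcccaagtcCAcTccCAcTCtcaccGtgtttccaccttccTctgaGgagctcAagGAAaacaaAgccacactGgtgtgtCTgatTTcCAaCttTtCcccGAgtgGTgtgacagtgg
Iglc3: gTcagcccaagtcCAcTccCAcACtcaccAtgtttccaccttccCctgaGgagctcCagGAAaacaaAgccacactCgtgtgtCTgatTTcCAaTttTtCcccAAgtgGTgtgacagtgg

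Iglc2 and Iglc3 were identical at 113 of these 120 bases and at 303 of 314 coding bases (96.5%), whereas Iglc1 matched Iglc2 at 92 and Iglc3 at 93 of 120. No run of 100 bases was shared between any pair of them, so that a read of 100 bases within the exon has a difference to place it. Reads were 339 for Iglc1, 352 for Iglc2 and 316 for Iglc3, of which library 68 held 41.0%, 34.7% and 24.1%. Among lambda variable segments there were 419 reads for Iglv1, 106 for Iglv2 and 45 for Iglv3, and 48.0%, 59.4% and 31.1% in library 68. Iglc1 and Iglc3 overlap the antisense gene 2010309G21Rik, and the strand setting of the counting is not given in the sources used here, so that their reads and those of the antisense gene may not be told apart. Igkc overlaps the lincRNA Gm30211 on the same strand.

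In reads, heavy chain V segments were sparse relative to the constant regions. There were 0 to 9.58 Ighv reads per 100 heavy constant reads in a tumor, against 29.9 to 81.2 Igkv reads per 100 Igkc reads. These ratios are not scaled to length. Ighm has 1886 bases of exon and Igkc 532, so the heavy and kappa ratios are not comparable. Of 183 Ighv segments 101 had reads, 1863 in all, with 845 (45.4%) in library 68 and fewer than 20 in each of 22 tumors. Of 162 Igkv segments 94 had reads, 4939 in all, with 2130 (43.1%) in library 68. The Ighv1 family, the largest, took 30.8% of the Ighv reads, Ighv3 17.6% and Ighv2 11.4%. Igkv6 took 18.5% of the Igkv reads, but 10.9% without library 68, while Igkv4 (16.5%) and Igkv1 (12.4%) then took 16.9% and 15.2%.

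Some segments had reads spread over many tumors, and others had most of their reads in 1. Igkv10-96 had the most kappa reads, 354 in 33 tumors, with 137 in library 68. Igkv1-110 had 213 reads in 28 tumors, with 87 there. By contrast, library 68 held 285 of the 346 reads of Igkv6-32 (82.4%), 216 of 260 of Igkv6-23 (83.1%) and 172 of 222 of Igkv4-59 (77.5%). These segments had reads in 13, 20 and 19 tumors, in that order. Library 68 held 43.1% of the reads of all Igkv segments. Igkv6-32 also led in library 51, an isotype control, with 31 of 101 kappa V reads (30.7%, 95% Wilson interval 22.5 to 40.3%). Among heavy segments Ighv3-8 had 188 reads, 116 of them in library 68 (61.7%), and Ighv2-9, Ighv7-3, Ighv9-3 and Ighv3-2 had 72, 69, 69 and 67 reads, with 23, 40, 29 and 8 in library 68.

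**Figure D4:**
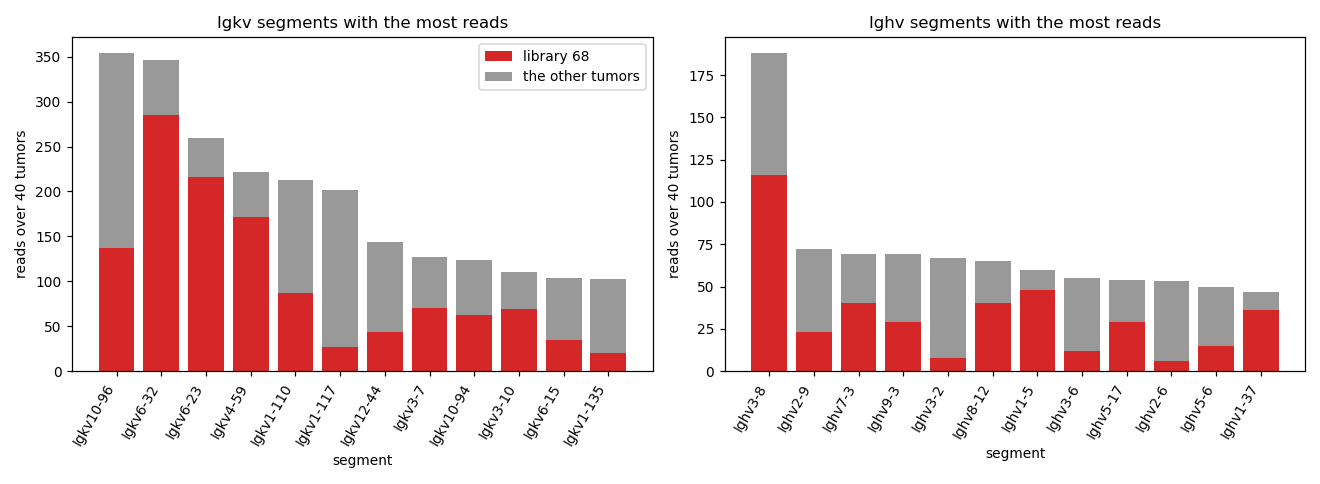
Reads over 40 tumors on the 12 Igkv segments (left) and the 12 Ighv segments (right) with the most reads, with the part from library 68 in red and the other tumors in gray. Igkv6-32 (285 of 346 reads) and Igkv6-23 (216 of 260) come mostly from library 68, and Igkv1-117 (27 of 202) mostly from the other tumors.

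The reads of library 68 were nevertheless spread over many segments. In the tumors with at least 200 kappa V reads, the leading segment took 13.4% in library 68 (Igkv6-32), 12.2% in library 48 and 11.8% in library 42 (both Igkv10-96), and 7.87% in library 47 (Igkv1-117). At a common depth of 216 reads, 50.6 segments would be expected in library 68, 57.2 in library 48, 56.2 in library 42 and 59.0 in library 47. The inverse Simpson number, the count of equally used segments that would give the same evenness, was 20.1, 25.8, 21.1 and 32.6. For Ighv only library 68 reached 200 reads, with 76 segments and an inverse Simpson number of 24.8. Counts per segment carry no joining region, so they do not show clones.

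The sequences show how far the leading kappa segments can be told apart. The last 90 coding bases are printed for Igkv6-32 (chr6:70074024-70074603), Igkv6-23 (chr6:70260409-70260955), Igkv10-96 (chr6:68631963-68632442) and the relative of the latter, Igkv10-94 (chr6:68704508-68704978), all on the minus strand of GRCm38, from GENCODE M21 transcripts. Capitals mark the bases that differ within each pair.
Igkv6-32: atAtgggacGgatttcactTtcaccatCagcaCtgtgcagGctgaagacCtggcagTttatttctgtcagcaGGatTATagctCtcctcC
Igkv6-23: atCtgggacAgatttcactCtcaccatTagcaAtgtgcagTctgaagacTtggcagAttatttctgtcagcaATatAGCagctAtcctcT
Igkv10-96: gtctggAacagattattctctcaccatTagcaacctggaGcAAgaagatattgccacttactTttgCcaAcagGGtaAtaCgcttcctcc
Igkv10-94: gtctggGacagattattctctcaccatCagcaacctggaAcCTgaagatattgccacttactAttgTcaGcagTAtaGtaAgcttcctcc

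The segments Igkv6-32 and Igkv6-23, both concentrated in library 68, were identical at 281 of 347 coding bases (81.0%). Igkv10-96 and Igkv10-94 were identical at 331 of 347 (95.4%) and share stretches of 100 identical bases, so that reads may be divided between them or set aside as not unique. Of the 359 members with a transcript, 99 (27.6%) share at least 1 run of 100 bases with another member. The sparse V counts are therefore uncertain for close relatives.

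Ighv3-8 (chr12:114322327-114322801, minus strand), the heavy segment with the most reads, has an annotated transcript that holds the recombination signal. Its last 90 bases are shown with the recombination heptamer CACAGTG, at which the recombinase cuts next to a V segment, in capitals.
Ighv3-8: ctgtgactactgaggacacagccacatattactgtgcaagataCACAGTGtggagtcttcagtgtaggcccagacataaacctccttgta
The heptamer occurs in the last 90 bases of 2 of 346 annotated V segments on the coding strand (0.578%) and of 10 on the reverse strand (2.89%). Bases after the heptamer are not part of a rearranged V gene, and counts per gene do not show where in Ighv3-8 the 188 reads lie.

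Igkc followed Jchain, Cd79a, Mzb1 and Ms4a1 across tumors, and Ighm followed these genes less closely. Over 40 tumors, Pearson's r of log2 CPM was 0.953 between Igkc and Jchain (Spearman's rho 0.908), 0.903 with Cd79a (0.862), 0.894 with Mzb1 (0.814), a chaperone of antibody assembly, and 0.857 with Ms4a1 (0.827). Each had a permutation p of 1e-05, the smallest that 100000 resamples can give, and an adjusted p of 2.40e-05 over 12 relations for r and rho. Without the tumors farthest from the median, libraries 48 and 68, r lay between 0.803 and 0.919, and within library parts between 0.826 and 0.961. Tnfrsf17, the plasma cell receptor BCMA, did not follow Igkc (r = 0.210, rho = 0.177, permutation p = 0.194 and 0.275, adjusted p = 0.211 and 0.300).

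For Ighm the same relations were weaker, with r = 0.621 for Ms4a1 (rho 0.652), 0.576 for Cd79a (0.596), 0.535 for Jchain (0.431) and 0.503 for Mzb1 (0.411), with adjusted permutation p values from 4.00e-05 to 0.0108. Without libraries 48 and 77 they lay between 0.522 and 0.604, and within library parts between 0.505 and 0.678. With Tnfrsf17, Ighm had r = -0.186 and rho = -0.117 (permutation p = 0.250 and 0.468, adjusted p = 0.250 and 0.468). The order was reversed for Cd79b, Irf4, Derl3 and Prdm1, with r of 0.681, 0.563, 0.425 and 0.0585 for Igkc. Ighm had 0.838, 0.699, 0.608 and 0.361 with these genes. In the rest of the B cell and plasma cell lists taken up below, r was higher with Igkc. The difference between the coefficients of Igkc and Ighm was not tested.

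**Figure D5:**
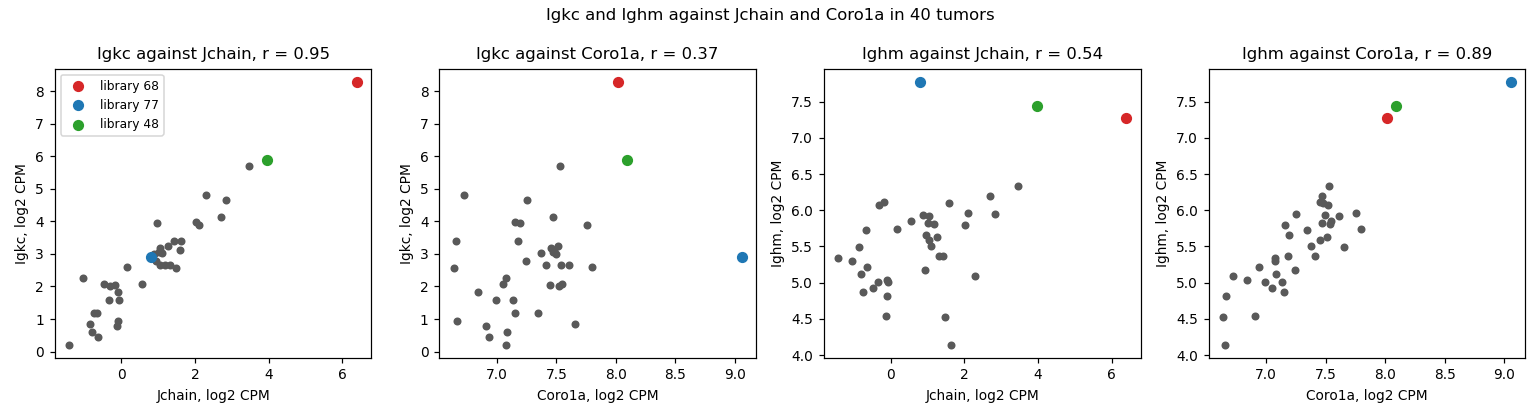
Log2 CPM of Igkc and of Ighm against Jchain and against Coro1a, 1 point per tumor (n = 40), with Pearson's r in each title and libraries 68, 77 and 48 colored. Igkc lies close to a line with Jchain (r = 0.953) and scatters against Coro1a (r = 0.370), while Ighm follows Coro1a (r = 0.893).

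Likeness was ranked among genes outside the name rule, 19429 compared by Pearson's r over the 40 tumors. The 10 most like Igkc had r from 0.953 to 0.836 and included Jchain, Pou2af1, Cd79a, Fcer2a, Mzb1, Blk, Cr2, Ms4a1 and Fcmr. For the other constant genes, the same likeness was looked up after the values had been seen and is given as a description. Ighd was most like Ms4a1 (0.909), with Blk also close (0.894), and Ighg1 was most like Mzb1 (0.881), Tnfrsf13c (0.858) and Pou2af1 (0.845). Ighm differed from them, its closest genes being Cnp (0.897), Coro1a (0.893), an actin regulator of blood cells, Limd2 (0.878), Abi3 (0.864) and Hcls1 (0.864). Its r was 0.778 with Itgam of myeloid cells, 0.737 with Cd3e of T cells and 0.727 with Ptprc of all leukocytes, where Igkc had 0.202, 0.411 and 0.187. In library 77, Ighm, Cd3e and Fcgrt were at their highest over the 40 tumors, with Igkc at 7.28 CPM. Igha was most like Rarres2 (0.787), Rab40b (0.764) and Serping1 (0.759), and its r with Jchain was 0.715. All points share library depth and the leukocyte content of whole tumors.

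Genes that accompany immunoglobulins, from lists of B cell, plasma cell and class switch genes, also had no member past an adjusted p of 0.05 in any comparison with the isotype control (edgeR). Of the 10 B cell genes, 8 had an unadjusted p under 0.05 with anti-TGFb + anti-PD1 FcS, all higher, and 0 to 3 in the other comparisons with the isotype control. Their level (summed B cells list) was 131 CPM in library 68, 9.47 to 12.8 CPM in the other 4 tumors of that group and 6.61 to 11.05 CPM in the isotype controls. Without library 68, 0 of the 10 B cell genes and 0 of the 10 tested plasma cell genes had an unadjusted p under 0.05 in that comparison, and 3 of the 8 class switch genes still did. Of the 12 plasma cell genes, 10 were tested and 3 had an unadjusted p under 0.05 in that comparison, but the summed plasma cells list, 511 to 755 CPM in every tumor, was set by Txndc5, Xbp1, Sdc1 and Fkbp11, which had at least 299 reads in each tumor and r of -0.227 to 0.135 with Igkc. Of the 13 genes of class switching and B cell help, 8 were tested, and 0, 1, 0, 0, 3, 2 and 3 had an unadjusted p under 0.05 and a higher level, in the order of comparisons above, where 0.949%, 2.32%, 0.969%, 0.474%, 20.7%, 16.6% and 20.1% of all genes had an unadjusted p under 0.05 in either direction. The help cytokines Il4, Il5 and Il21 had 28, 17 and 10 reads in all. Of the surrogate light chain genes of B cell precursors, Vpreb2 had 0 reads and Igll1 2 in all 40 tumors. Vpreb1 had 125 reads in 34 tumors, and Vpreb3 had 55 in 17, with 20 of them in library 68.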

How the data were processed

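RNA from 40 CT26 tumors was sequenced from TruSeq stranded mRNA libraries as paired reads. Per the study's methods and processing notes, the authors aligned reads with STAR 2.5.3a to GRCm38, used SAMtools 1.6 and counted genes with HTSeq 0.9.1, and the deposited values are raw counts per gene. The annotation release and strand setting are not given in the sources used here. Reads that fit several V segments may have been dropped. No column of another sample was left out (0). Counts were tested with edgeR 4.0.16 in R 4.3.3 (TMM, filterByExpr, quasi-likelihood test, all 40 mice in 1 model, Benjamini-Hochberg), after a check on simulated data, and with DESeq2 1.42.0 as an alternative. Log2 CPM used a prior count of 2. Shares were compared by exact permutation tests (Python 3.11.15, scipy 1.17.1), and correlations by 100000 resamples. Named genes were all constant and Iglv genes and the 5 Ighv and 5 Igkv segments with the most reads. The 10 genes outside the name rule most like Igkc and the marker lists were named as well. Other names were chosen after values were seen. Members and lists were chosen with earlier results of these data known. Some genes of the marker lists are not reported here by name.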

Additional observations from a re-analysis of the deposited data

Results flagged for a closer look

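In groups of 5 tumors, the highest or lowest tumor was set against the rest by Dixon's ratio of its gap to the group's range (above 0.71). For values of a normal distribution, chance alone sets off about 1 in 20 such checks. Here 28 of 72 were set off (38.9%), in 10 tumors, 25 of them on the high side. Levels and shares were not transformed, and the checks share reads, so this rate cannot be set against 1 in 20.

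For the summed level of all members, the tumors that stood apart were library 51 of the isotype control (74.0 CPM), library 48 of anti-TGFb (319 CPM), library 42 of anti-GARP:TGFb WT (243 CPM) and library 68 of anti-TGFb + anti-PD1 FcS (1225 CPM). For Ighm they were library 77 of anti-GARP:TGFb WT + anti-PD1 FcS (219 CPM) and library 68 (155 CPM). For Ighg1 they were library 51 (7.09 CPM), library 47 of anti-PD1 FcS (19.3 CPM), library 42 (34.2 CPM), library 70 of anti-GARP:TGFb FcD (8.04 CPM) and library 68 (465 CPM). For Igkc they were library 47 (27.8 CPM), library 48 (59.3 CPM), library 42 (51.9 CPM), library 45 of anti-GARP:TGFb WT + anti-PD1 FcS (24.9 CPM) and library 68 (313 CPM). For Igha they were library 48 (10.05 CPM), library 42 (7.999 CPM) and library 41 of anti-GARP:TGFb FcD (5.56 CPM).

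As a share of heavy constant reads, Ighm was far below the rest of its group in library 47 (47.8%), library 42 (55.5%) and library 68 (23.0%). Ighg1 was far above it in library 51 (13.3%), library 47 (27.2%), library 59 of anti-TGFb (11.2%), library 42 (23.6%), library 70 (11.2%) and library 68 (69.3%).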

How the results depend on the processing

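No paired analysis was possible because the labels give the mice of different groups no shared number. With other size factors, immunoglobulin genes left out of the library size, no filter, DESeq2, the compared groups alone or the library part as a covariate, the number of members past an adjusted p of 0.05 moved only in the test over the 8 groups, to 1 without a filter and to 1 by DESeq2. Leaving out 1 mouse at a time gave 0 to 7 members for anti-TGFb + anti-PD1 FcS against isotype control (7 without library 53), 0 to 3 against anti-PD1 FcS (3 without library 53), 0 to 4 over the 8 groups (4 without library 53), and 0 in the other 12 comparisons. Without library 53, 2006, 1734 and 2288 of all 14951 genes tested passed in these comparisons, in that order. Of 44 fold changes recomputed under the alternatives, 12 changed sign, each without library 68 and each in anti-TGFb + anti-PD1 FcS. Over all mice left out in turn, the log2 fold change against isotype control ran from -1.83 to 9.97 for Ighg1, from -0.78 to 4.85 for Igkv1-110 and from -0.63 to 2.14 for Ighg2b. Against anti-PD1 FcS it ran from -3.29 to 8.41 for Ighg1, -2.20 to 4.32 for Igkv1-110, -1.94 to 3.28 for Ighd, -1.68 to 4.17 for Iglc1, -0.84 to 4.91 for Iglc2, -0.77 to 4.70 for Iglv1, -0.59 to 2.76 for Igkv1-117, -0.50 to 4.51 for Igkc and -0.44 to 1.997 for Ighg2b. Beside these 12 values, 1998 kept direction and side of the threshold and 10 passed it. Counts of marker lists and the Ighm share without library 68 were added after seeing the data. The cause was not tested. Low V segment counts, with a median of 15.5 Ighv reads per tumor, limit segment usage to a few tumors.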
